A study of Homo sapiens with 11 samples.

Results

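The HIST1 core histone genes are the genes of the large histone cluster on human chromosome 6 that encode H2A, H2B, H3 and H4. They were taken from the total RNA table by symbol, as every gene whose name begins HIST1H2A, HIST1H2B, HIST1H3 or HIST1H4, which gave 60 of the 58699 genes. There were 18 H2A, 18 H2B, 11 H3 and 13 H4 genes, of which 12, 15, 10 and 12 are coding genes and 11 in all carry a pseudogene name (PS in the symbol). All 49 coding genes lie on chromosome 6 between 25726132 and 27893843 (GRCh38, GENCODE release 29), and the pseudogenes HIST1H2BPS3 and HIST1H2APS6 lie on chromosome 13.

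The RNA came from the colorectal cancer line HCT116, an established human cell line. Every group carried an siRNA, either the control against luciferase (siLuc) or one against Staufen1 (siStau1), a protein that binds double-stranded RNA, and every group received either the solvent DMSO or decitabine (DAC), which inhibits DNA methyltransferases, at 500 nM for 5 days. Total RNA depleted of ribosomal RNA was sequenced in 2 libraries for each of the 4 combinations, and the deposited table gives 1 value per combination. That value is an FPKM, the number of fragments counted for a gene scaled to its transcript length and to the size of the library, so no spread between libraries, no standard error and no sequencing depth can be given. Whether the 2 libraries of a group came from separate cultures is not given in the sources used here. A gene is called changed where the authors' Cuffdiff q-value is under 0.05. The labelled cell type was checked on marker genes: in siLuc DMSO the epithelial genes KRT8, KRT18, KRT19 and EPCAM stood at 1103, 681, 537 and 259 FPKM, while CEACAM5, CEACAM6, LGR5 and VIL1 were at or near 0. Summed markers of fibroblasts, blood cells and endothelium were 1.77, 0.263 and 0.139 FPKM in siLuc DMSO and 10.5, 2.23 and 1.38 FPKM in siLuc DAC. STAU1 itself stood at 35.5 FPKM (DMSO) and 33.7 FPKM (DAC) with the control siRNA and at 29.98 and 27.1 FPKM with siStau1, and for the siRNA comparison the authors' deposited table gives q-values of 0.767 with DMSO and 0.685 with DAC. The knockdown is therefore not called at the RNA level, and each direction below is that of the libraries labelled siStau1.

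Core histones form the octamer around which DNA is wrapped, with a pair each of H2A, H2B, H3 and H4. Because every S phase needs a large supply, each type is encoded by many small, mostly intronless gene copies, and their mRNAs usually end in a short stem-loop bound by the protein SLBP instead of a poly(A) tail. Transcription is switched on by NPAT at the start of S phase, together with factors that recognise elements of 1 type: POU2F1 (OCT1) binds an octamer sequence in H2B promoters and HINFP binds an element of H4 promoters.

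The 4 types were first compared by the sequence before their start sites. RefSeq promoter windows (GRCh38.p14, 250 bases before to 50 bases after the start) were matched for 42 of the 49 coding genes. Some RefSeq starts lie far from the start of the GENCODE gene. Relative to the RefSeq start, the GENCODE start was at -11702 bases for HIST1H2BE, 2043 for HIST1H3D and -809 for HIST1H2BN. It was at -694 for HIST1H4I and -402 for HIST1H3G. The octamer ATTTGCAT, searched on both strands, was in 12 of 15 H2B windows, 9 of 11 H2A, 1 of 6 H3 and 0 of 10 H4, against 1.77% of 35116 windows of all genes. In H2A windows 8 of the 9 matches were on the strand opposite to the gene; H2A and H2B genes often stand back to back and their windows then overlap. The H3 match is in HIST1H3D, whose RefSeq window is that of HIST1H2AD. GGTCCG, the core of the H4 element, was in 9 of 10 H4 windows, each time on the gene's own strand with its first base between -47 and -44 (the base before the start is -1), in 0 of 11 H2A and 0 of 15 H2B windows and in 1 of 6 H3 windows, against 11.3% of all windows. The H4 window with none was that of HIST1H4G. The 30-base stretches below are printed 5′ to 3′ on the gene's strand with the element in capitals. They show 3 H4 genes with almost no RNA in siLuc DMSO (HIST1H4F, HIST1H4L and HIST1H4I), then 3 abundant ones.
HIST1H4F: tcagtctccaaaaaGGTCCGcataattgat
HIST1H4L: agagttcccaatcaGGTCCGatttattact
HIST1H4I: ccggttttcagtctGGTCCGcagaggttac
HIST1H4B: tcagttctcaataaGGTCCGatgttcgtgt
HIST1H4D: gaggttttcaaacaGGTCCGtcatgctatt
HIST1H4H: tcagtcttcaattaGGTCCGaattcccggc
The same element was thus present in low and abundant H4 genes: it was found in 4 of 5 low and 5 of 5 abundant H4 genes with a window, where low means under 20 FPKM in siLuc DMSO. For H2B the octamer was in 6 of 6 low and 6 of 9 abundant genes. The next stretches show the octamer in 3 low H2B genes (HIST1H2BB, HIST1H2BG and HIST1H2BI) and then in 3 abundant ones.
HIST1H2BB: ataaattccatATTTGCATaaaccccaccc
HIST1H2BG: ttgaattctttATTTGCATgaaaggcctat
HIST1H2BI: cagccagcctcATTTGCATatacacgaggt
HIST1H2BK: ctcttcaccttATTTGCATgagaggtccta
HIST1H2BJ: ctcttcaccttATTTGCATaagcgattcta
HIST1H2BM: ttctactcctaATTTGCATaataacattta
In HIST1H2BG, HIST1H2BI, HIST1H2BK, HIST1H2BJ and HIST1H2BM the octamer began between -48 and -45, and in HIST1H2BB at -120.

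The TATA box TATAAA was in 29 of 42 member windows (11.5% of all windows) and the CCAAT box CCAAT in 35 of 42 (34.6% of all windows), both searched on either strand. CCAAT was in all matched H2A, H2B and H3 windows but in 3 of 10 H4 windows. The 200 bases before the start are given for 2 pairs, each with a low gene first and an abundant gene second, with the type's element in capitals.
HIST1H4F, chr6:26240193-26240392, plus strand: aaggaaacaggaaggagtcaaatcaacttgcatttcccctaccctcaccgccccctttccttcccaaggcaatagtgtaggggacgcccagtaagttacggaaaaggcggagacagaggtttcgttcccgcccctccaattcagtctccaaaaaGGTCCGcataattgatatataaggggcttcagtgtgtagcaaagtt
HIST1H4D, chr6:26189113-26189312, minus strand: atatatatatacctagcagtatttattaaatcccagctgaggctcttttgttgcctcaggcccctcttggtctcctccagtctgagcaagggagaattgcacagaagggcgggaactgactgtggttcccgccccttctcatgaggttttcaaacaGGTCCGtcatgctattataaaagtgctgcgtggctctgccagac
HIST1H2BG, chr6:26216689-26216888, minus strand: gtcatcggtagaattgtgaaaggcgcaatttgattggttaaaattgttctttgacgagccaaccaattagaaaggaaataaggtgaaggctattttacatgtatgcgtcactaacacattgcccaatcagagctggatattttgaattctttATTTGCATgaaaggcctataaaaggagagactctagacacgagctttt
HIST1H2BK, chr6:27146859-27147058, minus strand: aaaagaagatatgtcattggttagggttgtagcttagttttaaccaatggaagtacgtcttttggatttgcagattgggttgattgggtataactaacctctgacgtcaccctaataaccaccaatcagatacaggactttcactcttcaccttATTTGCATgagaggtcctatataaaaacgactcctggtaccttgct
The number of CpG dinucleotides, the sites that DNA methyltransferases act on, had a median of 8 in the 300-base windows of low genes (range 3 to 18) and 11 in those of abundant genes (range 5 to 17), against 14 over all promoter windows. The direction was not the same in every type. For low and abundant genes the medians were 13 and 9.5 in H2A, 6.5 and 11 in H2B, 7 and 9 in H3, and 11 and 16 in H4. The window shared by HIST1H3D and HIST1H2AD counts among both the low H3 and the abundant H2A genes. DNA methylation was not analysed here, and a match is a run of letters, not a shown binding site.

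**Figure D1:**
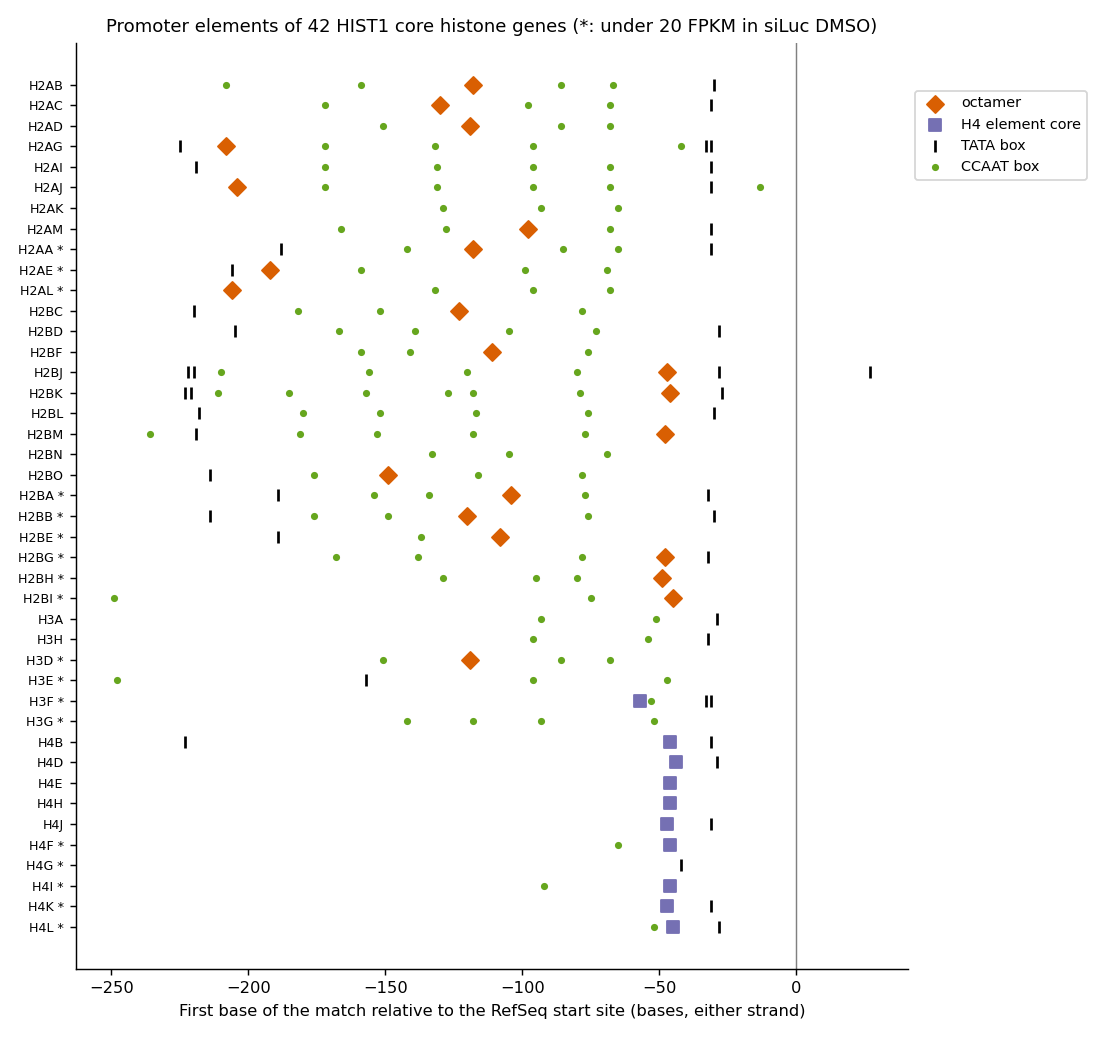
Position of 4 sequence elements in the promoter windows of 42 coding HIST1 core histone genes, 1 row per gene, grouped by type; the x axis is the distance in bases of the match's first base from the RefSeq start site. The H4 element core lies in a narrow band between -47 and -44 in 9 H4 genes, while the octamer occurs in H2A and H2B rows at varying distances, with and without the asterisk of a low gene.

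At the other end of the mRNA, the stem-loop also differed by type. It was searched as 16 bases with 2 arms of 6 bases (capitals) around a loop of 4, and was present in the GENCODE transcripts of 16 of the 49 coding genes. For 33 of the 49 the longest transcript is under 600 bases, and many of these models stop near the coding sequence. Others run on past the stem-loop. In the 16 models it lay between 6 bases (HIST1H4J) and 1761 bases (HIST1H2AG) before the transcript end. Forms found in these models are given below, each named by the types that held it.
H2A, H2B and H3: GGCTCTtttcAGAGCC
H2B and H3: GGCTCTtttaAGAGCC
H2A: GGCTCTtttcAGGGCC
H4: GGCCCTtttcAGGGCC
One more form, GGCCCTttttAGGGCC, was in HIST1H4I. All 5 H4 models with a stem-loop had the arm GGCCCT, and none of the 11 models of the other types with one did. Both low (6) and abundant (10) genes were among the 16.

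In cells with the control siRNA and DMSO the types differed in level. Summed over coding genes, siLuc DMSO held 6009 FPKM of H2B, 4348 of H4, 1877 of H2A and 1669.7 of H3, together 2.33% of the FPKM of all protein-coding genes. Within each type a few copies carried most of this. The highest H2B genes were HIST1H2BD (1331 FPKM), HIST1H2BK (1059) and HIST1H2BO (964), the highest H4 genes HIST1H4D (1111), HIST1H4B (1067) and HIST1H4C (1008), the highest H3 gene HIST1H3B (757) and the highest H2A gene HIST1H2AI (426). HIST1H2BK and HIST1H2AI share most of their 50-base windows with other genes (25.9% and 37.7% unique), so how fragments were split bears on both values. At the other end, 20 coding genes were under 20 FPKM and together held 0.344% of the sum. FPKM is scaled to transcript length, and the longest models of coding genes run from 297 to 4137 bases. Some low genes have long models, such as HIST1H3E (2679 bases) and HIST1H2BE (2585 bases). The levels of genes and types, and the low class itself, can therefore depend on the models as well. The limit was placed after the values were seen, in a gap: HIST1H2BI (10.5) and HIST1H3E (7.61) lay just below it, HIST1H2AD (28.4) and HIST1H4J (76.9) just above. The low class held 3 of 12 H2A, 6 of 15 H2B, 6 of 10 H3 and 5 of 12 H4 genes, so that H3 was the 1 type with more low than abundant genes. The 11 pseudogenes reached at most 1.11 FPKM in siLuc DMSO. The RNA is from bulk cultures, so fewer cells with a histone mRNA and less of it per cell cannot be told apart.

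**Figure D2:**
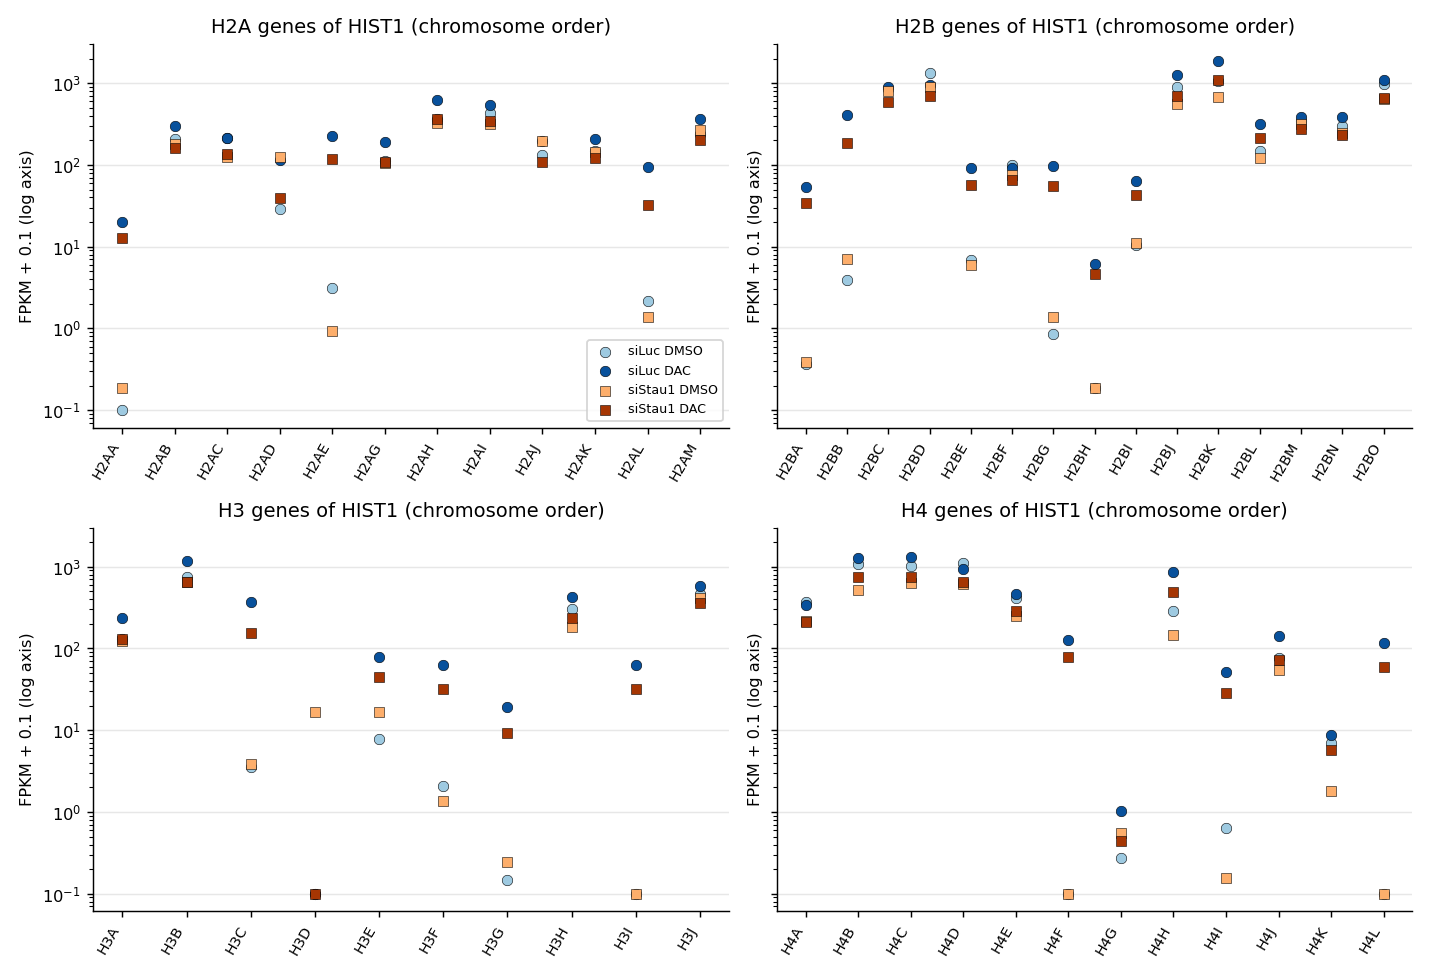
FPKM + 0.1 (log axis) of each of the 49 coding genes in the 4 groups, 1 panel per histone type and genes in chromosome order; each point is the authors' single value for a group of 2 libraries, so there are no error bars. Genes near the bottom with DMSO, such as HIST1H4F and HIST1H4L, stand above 50 FPKM with DAC, while most upper genes differ less between groups. Among the upper genes HIST1H4H ranges from 144 to 855 FPKM and HIST1H2AD from 28.4 to 124 FPKM.

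DAC was compared with DMSO in siLuc cells, the question being which copies of each type differ in RNA level with the drug. In every type some low copies were called higher with DAC, 12 of the 20 low genes in all, against 2 of the 29 abundant genes. The 19 low genes tested had a median log2 ratio of 6.37 and the 29 abundant genes one of 0.45, beside 0.23 over all 17504 genes tested. Since the low genes were picked on the siLuc DMSO value, a higher value with DAC is partly fixed by the choice, and these medians are a description. Of the 52 members tested, 14 were called higher and 0 lower in the authors' deposited table, where 8.71% of all genes tested were called higher, 4.78% lower and 13.5% in either direction. By value 47 of the 52 were higher and 5 lower, where 57.1% of all genes tested were higher and 42.9% lower. These shares are background, from which nothing is read for genes chosen with this comparison known. At an unadjusted p under 0.05, 25 members and 5056 of the 17504 genes tested pass in the same table. Of the 14 calls, 2 were H2A genes, 4 H2B, 4 H3 and 4 H4, and 12 were low genes.

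Among H2A genes the calls were HIST1H2AA and HIST1H2AE. HIST1H2AE rose from 2.998 to 223 FPKM, 74.3-fold, and the authors' deposited table gives it 0.00162, the smallest q-value it holds. HIST1H2AA, a testis-associated H2A gene, was listed at 0 with DMSO and at 19.8 FPKM with DAC. HIST1H2AL stood at 2.05 and 95.5 FPKM, but it shares its deposited locus with other members and was not called (q = 0.175 in the authors' deposited table). Of the abundant H2A genes HIST1H2AD had the largest ratio, 4.02-fold from 28.4 to 114 FPKM. It was not called, and its value is uncertain because it shares most of its sequence. Other abundant H2A genes moved less by value. HIST1H2AH was at 366 and 628 FPKM, HIST1H2AI at 426 and 539, HIST1H2AM at 237 and 364, and HIST1H2AC at 214 and 215, none of them called. So in H2A the genes with a call were both nearly silent with DMSO.

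Among H2B genes HIST1H2BB rose from 3.84 to 403 FPKM, 105-fold, and HIST1H2BG from 0.743 to 97.9 FPKM, 132-fold. HIST1H2BI rose from 10.5 to 63.4 FPKM, 6.03-fold, and HIST1H2BL, 1 of only 2 abundant genes called, from 146 to 319 FPKM, 2.19-fold. HIST1H2BA, which encodes the testis-specific H2B, stood at 0.272 and 52.8 FPKM, yet its q-value was 0.464 in the authors' deposited table. HIST1H2BE (6.72 and 91.2 FPKM) was not called either. With DAC, the FPKM of HIST1H2BB was above that of abundant copies such as HIST1H2BF, at 99.96 FPKM with DMSO and 91.3 with DAC. Their longest models are 381 and 1196 bases, and FPKM is scaled to transcript length, so this order depends on the models too. HIST1H2BK, the highest member with DAC, was at 1059 and 1845 FPKM without a call, and HIST1H2BJ was at 903 and 1275. HIST1H2BO stood at 964 and 1103 FPKM. The lowest ratio of all abundant genes was that of HIST1H2BD, at 1331 FPKM with DMSO and 949 with DAC, which was not called.

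H3 had the largest median ratio of the 4 types, 3.37 over its 9 tested coding genes. The other medians were 0.69 for H2A, 0.80 for H2B and 0.62 for H4. H3 also had the largest share of low genes, but low is defined by the DMSO value that enters this ratio. Among abundant genes the medians were 0.57 for H3, 0.57 for H2A, 0.19 for H2B and 0.26 for H4. No test of a difference between types was possible. HIST1H3C rose from 3.41 to 371 FPKM, 109-fold, and HIST1H3F from 2.01 to 62.8 FPKM, 31.3-fold. HIST1H3E rose from 7.61 to 79.3 FPKM, 10.4-fold. HIST1H3I was listed at 0 with DMSO in siLuc and siStau1 alike and at 62.7 FPKM in siLuc DAC. HIST1H3H, an abundant copy, was at 302 FPKM with DMSO and 430.2 with DAC. The longest models of HIST1H3C and HIST1H3H are 411 and 1237 bases. In that of HIST1H3H the stem-loop lies 769 bases before the end. Since FPKM is scaled to transcript length, the levels of these copies with DAC are not ranked. HIST1H3B was at 757 and 1167 FPKM and HIST1H3J at 469.6 and 588, both without a call.

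Among H4 genes HIST1H4F and HIST1H4L, both listed at 0 in each DMSO group, stood at 127 and 117 FPKM in siLuc DAC. HIST1H4I rose from 0.531 to 52.2 FPKM, 98.2-fold. HIST1H4H, the other abundant gene called, rose from 287 to 855 FPKM, 2.98-fold (q = 0.00162 in the authors' deposited table). The highest H4 genes were not called: HIST1H4C was at 1008 and 1304 FPKM, HIST1H4B at 1067 and 1276, HIST1H4D at 1111 and 951, and HIST1H4A at 374 and 339.97. HIST1H4J stood at 76.9 and 140.4 FPKM. HIST1H4G, whose window lacked the H4 element core, stayed under 1 FPKM in all 4 groups, with 0.927 FPKM in siLuc DAC as its highest value.

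**Figure D3:**
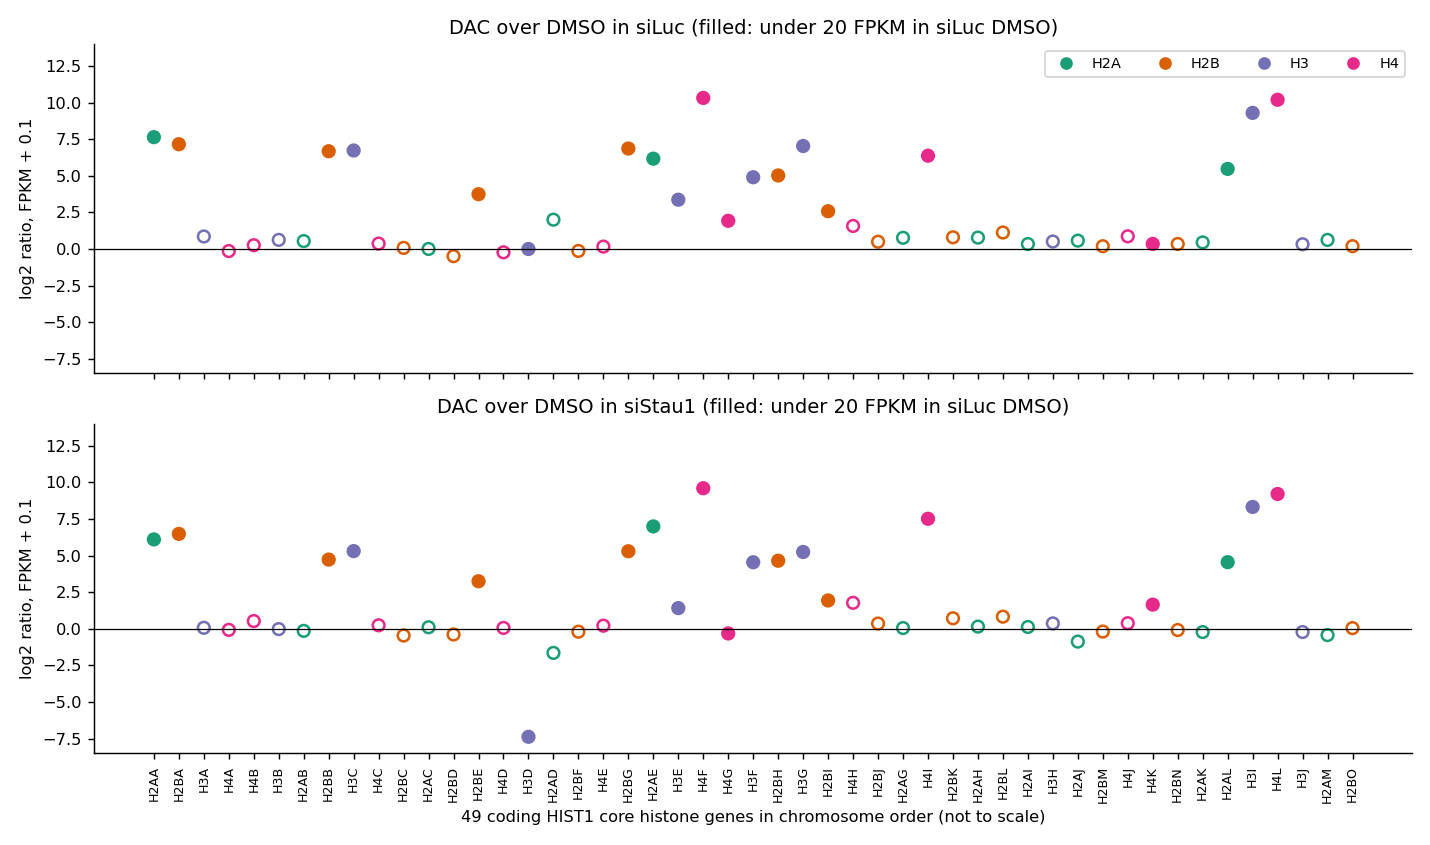
Log2 ratio of FPKM + 0.1, DAC over DMSO, of the 49 coding genes in chromosome order (x axis by rank, not distance) in siLuc (top) and siStau1 (bottom) cells; colour gives the histone type and filled points are low genes, under 20 FPKM in siLuc DMSO. Most filled points stand well above 0 in both panels, HIST1H3D, HIST1H4G and HIST1H4K do not, and 9 filled points are neighbours from HIST1H2BG to HIST1H2BI.

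Many low genes of different types lay next to each other. In chromosome order the 49 coding genes gave 8 runs of low genes, and the longest held 9 genes of all 4 types in a row, HIST1H2BG, HIST1H2AE, HIST1H3E, HIST1H4F, HIST1H4G, HIST1H3F, HIST1H2BH, HIST1H3G and HIST1H2BI (chromosome 6, 26215159 to 26273356). Shorter runs were HIST1H2AL, HIST1H3I and HIST1H4L (27865355 to 27873510), HIST1H2BB and HIST1H3C (26043277 to 26045821), and HIST1H2AA with HIST1H2BA at the start of the cluster (25726132 to 25727292). HIST1H2BE, HIST1H3D, HIST1H4I and HIST1H4K were runs of 1 gene, each between abundant genes. Of the 48 neighbouring pairs, 33 were of 1 class, and the number expected from the class sizes alone was not computed. HIST1H4H, the next coding gene after the run of 9, is the abundant gene that was called in both siRNA arms. The order is a description of where these genes lie, with no test.

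Summed by type, the low copies made up little of a type's total with DMSO and more of it with DAC. The low share of the summed FPKM was 0.269% for H2A, 0.369% for H2B, 0.783% for H3 and 0.174% for H4 in siLuc DMSO. In siLuc DAC it was 10.9%, 8.98%, 19.8% and 5.43% in the same order. The type sums themselves went from 1877 to 3092 FPKM for H2A, from 6009 to 7956 for H2B, from 1669.7 to 3014 for H3 and from 4348 to 5639 for H4, which is 1.65-fold, 1.32-fold, 1.80-fold and 1.297-fold, with no test. Low genes made up 32.9% of the difference between the summed values of all coding members, and by type from 23.1% for H4 to 43.3% for H3. The members' share of all protein-coding FPKM was 2.33% in siLuc DMSO and 3.28% in siLuc DAC.

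**Figure D4:**
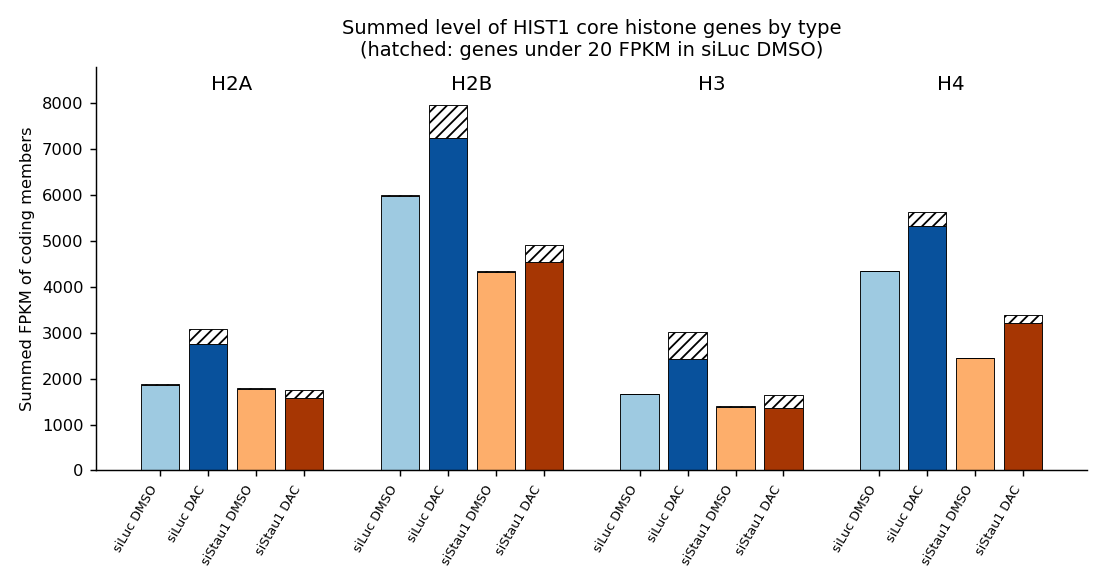
Summed FPKM of the coding genes of each histone type in the 4 groups, from 1 value per gene and group without error bars; the hatched part is the sum over the low genes. The hatched part is hardly visible with DMSO and reaches 19.8% of the H3 sum in siLuc DAC.

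Base composition moved with this comparison. The median transcript GC content of coding members was 60.9% for H2A, 48.8% for H2B, 60.2% for H3 and 57.4% for H4, and protein-coding genes in the GC bins of the coding members had a median bin value of 0.76 on the log2 scale between DAC and DMSO in siLuc. After centring within 20 GC bins the median of the low genes was 5.80, and that of the abundant genes was -0.17, with 12 of 29 above 0. The small positive median of the abundant genes is therefore not kept once genes of like GC content are the reference. The type sums were not centred. Their log2 ratios were 0.72 for H2A, 0.40 for H2B, 0.85 for H3 and 0.37 for H4, beside the bin value of 0.76. Hence no rise particular to histones is read from the sums or from the members' share of protein-coding FPKM. The low genes were picked on the siLuc DMSO value. A shift of 0.76 could not remove their median, so nothing is read from its being kept.

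The same comparison was made in siStau1 cells. The low genes were defined in the control arm of the same cell line with these values known, so their direction here is a description as well. By value 18 of the 20 low genes were higher with DAC, with a median log2 ratio of 5.25 over the 19 tested, and 16 of the 29 abundant genes were higher, with a median of 0.05, beside 0.11 over all 16979 genes tested. The authors' deposited table called 9 of 51 tested members higher and 0 lower, where 4.56% of all genes tested were called higher, 2.89% lower and 7.46% in either direction. By value 36 of the 51 were higher and 15 lower, where 54.1% of all genes tested were higher and 45.9% lower. At an unadjusted p under 0.05 there were 18 members and 3228 of the 16979 genes tested. By type the calls were 0 H2A, 3 H2B, 3 H3 and 3 H4 genes. The calls shared by both arms were 8 genes, which is 57.1% of the calls in siLuc and 88.9% of those in siStau1: HIST1H2BB, HIST1H2BG, HIST1H2BI, HIST1H3C, HIST1H3I, HIST1H4F, HIST1H4H and HIST1H4L. The same shares over all genes called were not computed, so nothing is read from them for the members. Whether the DAC response differed between the arms was not tested, since the table holds no value per library.

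HIST1H2BB rose from 6.94 to 187 FPKM in siStau1 cells, 26.9-fold, and HIST1H2BG from 1.29 to 54.4 FPKM, 42.3-fold. HIST1H2BI rose from 10.9 to 42.2 FPKM, 3.86-fold. HIST1H3C rose from 3.76 to 153 FPKM, 40.6-fold, and HIST1H3G, called in this arm but not in siLuc, from 0.142 to 9.11 FPKM. In siLuc HIST1H3G stood at 0.0463 and 19.1 FPKM without a call (q = 0.37, authors' deposited table). HIST1H4F, HIST1H4L and HIST1H3I went from a listed 0 to 77.5, 59.1 and 31.9 FPKM. HIST1H4H rose from 144 to 495 FPKM, 3.43-fold. HIST1H2AE stood at 0.821 and 117 FPKM, a 143-fold difference by value that was not called (q = 0.132 in the authors' deposited table). HIST1H2AA, HIST1H3E, HIST1H3F, HIST1H4I and HIST1H2BL, called in siLuc, were higher by value here as well, at 12.7, 44.6, 31.5, 28.1 and 213 FPKM with DAC against 0.0863, 16.6, 1.25, 0.0544 and 119.8 FPKM with DMSO. The summed values were 1787 and 1747 FPKM for H2A, 4351 and 4920.3 for H2B, 1413 and 1638 for H3, and 2445 and 3386 for H4. The sign of the small H2A difference turns when FPKM is scaled to protein-coding genes (log2 ratio 0.02 against -0.03).

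The siRNA arms were then compared with each other, which asks whether Staufen1 depletion goes with a different level of these mRNAs. With DMSO, 38 of the 60 members had a lower value in siStau1, and the abundant genes had a median log2 ratio of -0.40 against -0.02 over all 15893 genes tested. The authors' deposited table called 1 of 43 tested members lower and 0 higher, where 0.466% of all genes tested were called lower, 0.333% higher and 0.799% in either direction. By value 34 of the 43 were lower and 9 higher, where 51.3% of all genes tested were lower and 48.7% higher. This was HIST1H4B, which fell from 1067 to 524 FPKM, a ratio of 0.491 (q = 0.0194 in the authors' deposited table). The call is lost at a q-value limit of 0.01 and when p-values are adjusted within this comparison alone, with 0 members called in either case. At an unadjusted p under 0.05 there were 12 members and 684 of the 15893 genes tested. By value all 7 abundant H4 genes were lower, as were all 9 abundant H2B genes, all 4 abundant H3 genes and 6 of 9 abundant H2A genes. Among H4 genes without a call, HIST1H4C stood at 1008 and 631 FPKM, HIST1H4D at 1111 and 618, HIST1H4A at 374 and 219 and HIST1H4H at 287 and 144. The summed H4 ratio was 0.562, beside 0.724 for H2B, 0.846 for H3 and 0.952 for H2A, and these differences between types were not tested. Genes of the members' GC content had a median bin value of -0.25 with DMSO. After GC centring the abundant genes had a median of -0.24, with 19 below 0 and 10 above. The medians of H2B and H4 members were then -0.21 and -0.65. Those of H2A and H3 members turned to 0.01 and 0.07, so no direction is given for H2A and H3.

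With DAC, every one of the 51 tested members had a lower value in siStau1 than in siLuc, where 58.1% of all genes tested were lower by value and 41.9% higher. The median log2 ratio was -0.81 beside -0.14 over all 17263 genes tested, and by coding type it was -0.84 for H2A, -0.61 for H2B, -0.87 for H3 and -0.77 for H4. The authors' deposited table called 2 members lower and 0 higher, where 0.469% of all genes tested were called lower, 0.434% higher and 0.904% in either direction. HIST1H3C fell from 371 to 153 FPKM, a ratio of 0.412 with a q-value of 0.00162, and HIST1H2BB from 403 to 187 FPKM, a ratio of 0.463 with a q-value of 0.0221, both from the authors' deposited table. With p-values adjusted within this comparison alone 0 members were called, and at a q-value limit of 0.01 only HIST1H3C was. At an unadjusted p under 0.05 there were 29 members and 1199 of the 17263 genes tested. The called pair are neighbours in the cluster, and both are low genes. Ratios of the coding genes with at least 1 FPKM in both DAC groups ranged from 0.340 for HIST1H2AL to 0.768 for HIST1H2BH, and the type sums had ratios of 0.565 for H2A, 0.618 for H2B, 0.543 for H3 and 0.600 for H4. Genes of the members' GC content had a median bin value of -0.45 in this comparison. After GC centring 29 of 29 abundant genes were still below 0, with a median of -0.38, as were 18 of 20 low genes, with a median of -0.62. This comparison shares the siLuc DAC libraries with the DAC comparison in siLuc, so a high value in those libraries would enter both.

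**Figure D5:**
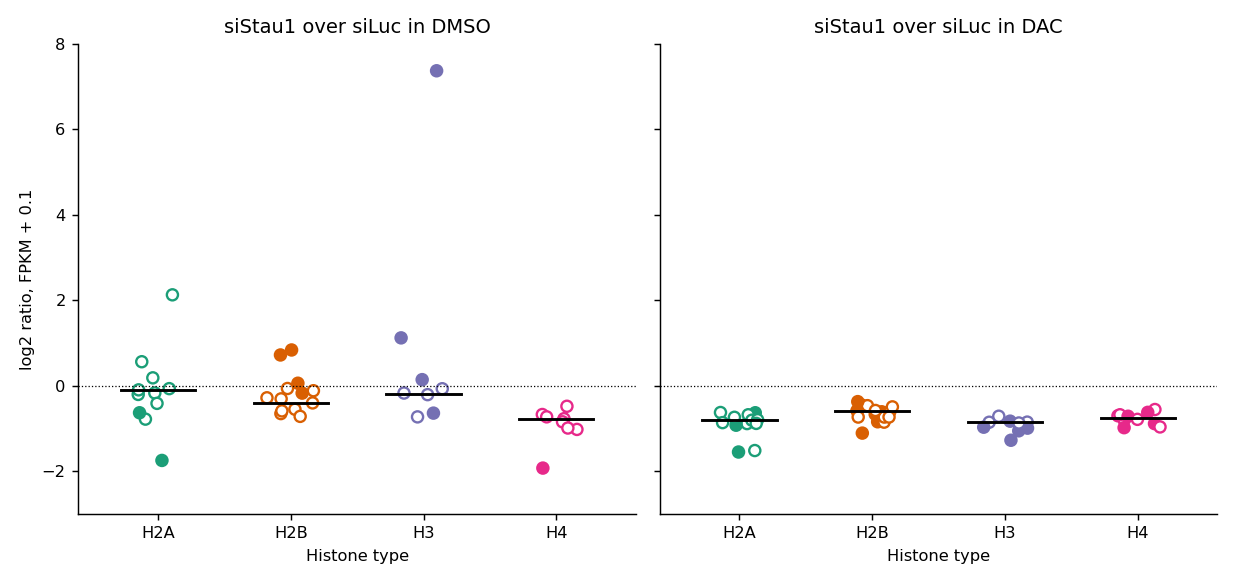
Log2 ratio of FPKM + 0.1, siStau1 over siLuc, of coding genes with at least 1 FPKM in either group, with DMSO (left) and DAC (right), by histone type; filled points are low genes and the black bar is the median of the abundant genes. With DAC all points lie below 0; with DMSO the median of the abundant H4 genes is the lowest of the 4 medians and the point at 7.37 is HIST1H3D, whose value is uncertain.

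Near-identical copies limit single values. The share of 50-base windows of a gene's longest transcript that occur in no other gene was 100% for 23 of the 49 coding genes and under 50% for 10. All 14 genes called in siLuc were at least 89.1% unique at 50 bases and fully unique at 100 bases, and HIST1H2BB, HIST1H3C, HIST1H4F, HIST1H4L and HIST1H3I were fully unique at both. HIST1H3D shares its whole sequence with the overlapping transcript AL031777.3 and is listed at 16.5 FPKM in siStau1 DMSO and next to 0 in the other groups, and HIST1H4K shares all its windows with HIST1H4J, so the values of those genes are uncertain. The same holds for HIST1H2AD (28.4 FPKM with DMSO and 114 with DAC in siLuc, 124 and 39.7 in siStau1), for HIST1H2BK, HIST1H2AI, HIST1H2AJ and HIST1H4J, which are 25.9%, 37.7%, 16.3% and 18.8% unique, and for the 10 members that share a deposited locus with another member. The pseudogene HIST1H3PS1 stood at 1.11 FPKM with DMSO and 17.7 with DAC in siLuc and at 0.476 and 8.77 in siStau1, without a call.

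Genes of histone mRNA production, S phase and histone deposition were read from the same table. Of 27 factors known to act on histone genes or their mRNA, the authors' deposited table called SYMPK higher and ERI1, NCBP2, DHX9 and SSB lower with DAC in siLuc. In siStau1 cells it called 0 higher and ERI1, CASP8AP2, SSB and SLBP lower, and it called 0 between the arms. ERI1, an exonuclease that trims the end of histone mRNA, fell in siLuc from 47.5 to 13.6 FPKM, and in siStau1 from 62.0 to 22.6 FPKM. SLBP stood at 113 and 57.3 FPKM in siLuc and fell from 189.96 to 78.0 in siStau1. Of 25 S phase genes, CDT1 rose and POLA1, PCNA and RRM1 fell with DAC in siLuc, and PCNA and RRM1 fell in siStau1, with a list median of -0.47 and -0.32 beside 0.23 and 0.11 over all genes tested. PCNA, the clamp of DNA replication, fell in siLuc from 334 to 129.7 FPKM, and in siStau1 from 363 to 183 FPKM. Of 12 histone chaperones 0 were called higher and ATRX, SUPT16H, NASP and NAP1L1 lower with DAC in siLuc, and ATRX and NAP1L1 lower in siStau1. ATRX was also called higher in siStau1 than in siLuc with DAC, at 18.5 and 7.60 FPKM. The part of a changed S phase share in the histone values was not tested.

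Core histone genes outside the cluster were read from the same table. Of 22 genes of HIST2, HIST3 and HIST4, HIST2H2AC, HIST4H4 and HIST2H2BA were called higher with DAC in siLuc and 0 lower, and HIST4H4 was called higher in siStau1. HIST4H4, an H4 gene outside the cluster, rose in siLuc from 117 to 290.5 FPKM, and in siStau1 from 59.7 to 154 FPKM. Between the arms with DAC, HIST2H2AC fell from 658 to 313 FPKM, HIST2H2BE from 216 to 116 and HIST4H4 from 290.5 to 154. HIST3H3, a testis-associated H3 gene, stood at 0.225 and 83.2 FPKM in siLuc and at 0.446 and 37.6 in siStau1, without a call. The list's medians were 0.73, 0.23, -0.44 and -0.82 in the DAC comparisons of siLuc and siStau1 and the siRNA comparisons with DMSO and DAC, beside 0.83, 0.37, -0.40 and -0.81 for the HIST1 members.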

How the data were processed

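The 60 genes, the comparison lists and the 20 FPKM limit were chosen with earlier results of these data known. The authors deposited 1 FPKM value per group of 2 total RNA libraries for 58699 genes in Cuffdiff's table layout, with a p-value and a q-value per comparison, per the file headers. The submitters' processing notes name hg38, HISAT2 2.1.0, Cuffdiff 2.2.1, Cuffnorm 2.2.1 and other tools, with no role or order, and how fragments of near-identical copies were shared is not given in the sources used here. Columns were oriented as DAC over DMSO and siStau1 over siLuc in 4 comparisons. Calls are the authors' deposited q-values under 0.05, adjusted over all comparisons of the table. Log2 ratios were computed as log2(FPKM + 0.1), which understates differences of low genes, and no fold was computed where a group was at or under 0.01 FPKM. The planned count tests, replicate checks and standard deviations need values per library and were not run. Depth is unknown. The J2 tables hold repeat elements and were not used for histone genes.

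All 58699 identifiers matched GENCODE release 29 (GRCh38), which gave positions, transcripts and GC content. Promoter windows came from RefSeq (GRCh38.p14), joined by Ensembl identifier, and motifs were searched on both strands. Every member may be named. Given in full were, per type, the 3 highest in siLuc DAC, the 2 largest and 2 smallest DAC ratios in siLuc at 1 FPKM or more in both groups, members at 0 in both DMSO groups, and members called between siRNAs. The scripts (Python 3.11.15, pandas 2.3.3) were tested on simulated data. Alternatives were the q-value limit, adjustment within a comparison, pseudocounts of 1 and 0.01, a filter of 1 FPKM, centring, scaling and leaving members out.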

Additional observations from a re-analysis of the deposited data

How the results depend on the processing

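Of 224 alternative values for 40 results, 213 stayed within 1.5 times of the count or 0.585 of the log2 value reported. Members called fell to 8 (DAC in siLuc) and 5 (DAC in siStau1) when at least 1 FPKM was required in both groups, since this drops genes near 0 with DMSO. Members called between siRNAs with DMSO were 0 at a q-value limit of 0.01 and 0 when the authors' deposited p-values were adjusted within that comparison. With DAC they were 1 and 0 in the same order, and within that comparison alone 0 of all genes were called, against 1199 at an unadjusted p under 0.05. Centring within GC bins took the H2A median to 0.11 (DAC in siLuc) and -0.54 (DAC in siStau1). The H3 median was 2.11 (siLuc) and 0.37 (siStau1) at 1 FPKM or more in both groups, and 3.94 (siStau1) over members alone in their locus, a setting chosen after seeing the data. In 8 of the 224 the sign changed, all in H2A or H3 members of the DAC comparison in siStau1 or the siRNA comparison with DMSO. No paired analysis was possible because the deposited table gives 1 value per group, so neither a replicate block nor leaving out a library was run. Library depth is unknown, so no counting interval stands behind a value or a listed 0.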

Other observations

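The linker histone genes of the same cluster, which encode H1, also held low and abundant copies. HIST1H1E stood at 1802 FPKM in siLuc DMSO and 1912 in siLuc DAC, and HIST1H1C at 1817 and 2108. Of the low genes, HIST1H1T was at 9.30 and 16.4 FPKM and HIST1H1A at 0.504 and 67.7 in the same groups. None of these genes was called with DAC in siLuc. HIST1H1B was listed at 0 FPKM in both DMSO groups and at 279 FPKM in siLuc DAC and 164 FPKM in siStau1 DAC, and the authors' deposited table called it higher with DAC in both arms. HIST1H1D was listed at 0 in siLuc DMSO and at 56.7 FPKM in siLuc DAC, called in that arm. The 8 HIST1H1 genes summed to 3629.5 FPKM in siLuc DMSO and 4440.4 FPKM in siLuc DAC.

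Of the 64 genes without a histone symbol between the first and last HIST1 core histone gene, 21 were tested for DAC in siLuc. The authors' deposited table called GPR89P higher (0 and 0.552 FPKM) and ZNF184, BTN2A2 and ZNF204P lower, and the median log2 ratio was -0.17. ZNF184, a zinc finger gene, fell from 6.52 to 2.07 FPKM, BTN2A2, a butyrophilin gene, from 12.04 to 3.40 FPKM, and ZNF204P from 3.90 to 0.593 FPKM. In siStau1 the table called 0 of the 18 tested genes, with a median of -0.65.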
